A study of Mus musculus with 3 samples.

Results

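Mature dendritic cells of regenerating mouse muscle were picked out cell by cell from the raw UMI counts (unique molecular identifiers, 1 per captured mRNA molecule). A barcode was kept when it held at least 500 detected genes and under 10% mitochondrial UMIs. Members were the kept cells with at least 3 UMIs of Ccr7 and Ccl22 together, at least 1 UMI of Fscn1, and 0 UMIs of Pdgfra and of Cd3e. This gate took in 206 of 35247 kept cells, from 38748 barcodes in all. The members were thus chosen by their counts of Ccr7, Ccl22 and Fscn1, so the levels of these 3 genes describe the gate and carry no test. They are called mature cells below.

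The study injected barium chloride into the tibialis anterior of C57/BL6J mice, a myotoxic injury after which the muscle regenerates, and dissociated the muscle 4 days later. There were 3 libraries: young PBS (mice of 3 to 4 months, injected with the saline vehicle), old PBS (24 to 26 months, vehicle) and old rMETRNL (24 to 26 months, recombinant meteorin-like protein, an immune cytokine, injected into the muscle). Each library pooled the cells of 3 mice, by the methods of the study, and each group had 1 library, so no difference between groups could be tested and intervals between libraries cover counting error only. The 3 libraries held 78, 54 and 74 mature cells, in the order given here and throughout (young PBS, old PBS, old rMETRNL).

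Dendritic cells sample their surroundings, present peptides on MHC molecules and prime T cells. When one matures it stops taking up antigen, raises the chemokine receptor Ccr7, which steers it along CCL19 and CCL21 into lymphatic vessels and to the lymph node, and remodels its actin with the bundling protein fascin, the product of Fscn1. It secretes CCL22, which attracts T cells that carry CCR4, among them regulatory T cells. Immature conventional dendritic cells come in a CD8-priming type that carries Xcr1 and Clec9a (cDC1) and a type that in mouse often carries the lectin Cd209a (cDC2). Gates on these markers served for comparison. They took 801 kept cells with at least 2 UMIs of Cd209a. They also took 374 with at least 2 UMIs of Xcr1 and Clec9a together and fewer than 2 of Cd209a. The Cd209a gate may hold more than cDC2, since 13.9% of its cells held Siglech, a plasmacytoid marker, and 14.1% the scavenger receptor gene Cd163. The part of such cells in the differences below was not tested. Neither comparison gate held a mature cell, a Pdgfra UMI or a Cd3e UMI.

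The 4 markers of these cells lie on 4 chromosomes (GRCm38, gene spans of GENCODE M21). Ccr7 is at chr11:99144196-99155077, Ccl22 at chr8:94745590-94751699, Fscn1 at chr5:142960343-142973185 and Cacnb3, a calcium channel subunit, at chr15:98630840-98644529. Cacnb3 was the marker that the gate did not use, and it was found in 154 of 206 mature cells, or 74.8%. It was found in 1.5% of Cd209a cells and 2.41% of Xcr1/Clec9a cells, and in 30.5% of 3510 fibro-adipogenic progenitors (FAPs, at least 3 Pdgfra UMIs and no Ptprc), which held more UMIs, with a median of 25643.5 a cell against 9773.5 in the mature cells. Ccr7 was found in 200 mature cells and Ccl22 in 134. Both were found in 128, and only 6 carried Ccl22 without Ccr7. In FAPs, which should lack both, Ccr7 was found in 0.627% and Ccl22 in 0.285% of cells. Fscn1 was in contrast present in 77.4% of FAPs, at 93.3 to 106 CPM (counts per 1000000 UMIs of the summed cells) against 663 to 1089 CPM in mature cells.

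Mature cells were 0.488% to 0.684% of the kept cells of a library and gave 38.4% to 61.6% of its UMIs of Il12b, the p40 chain of interleukin 12, which the gate did not use. Of the genes of the gate, whose share the selection itself raises, they gave 36.3% to 40.6% of the Ccr7 UMIs, 34.2% to 52.0% of the Ccl22 UMIs and 5.08% to 10.2% of the Fscn1 UMIs.

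The edges of the gate were less clean than its centre. Cells just inside, with 3 or 4 UMIs of Ccr7 and Ccl22, numbered 14, and 28.6% of them held Cacnb3. Just outside were 56 cells with 1 or 2 such UMIs and at least 1 UMI of Fscn1, and 16.1% of those held Cacnb3. Members with a single Fscn1 UMI numbered 33, of which 33.3% held Cacnb3, against 87.4% of the 135 members with at least 5 Fscn1 UMIs. A further 611 kept cells reached 3 UMIs of Ccr7 and Ccl22 without any Fscn1, and 6.55% of them held Cacnb3. The conditions on Pdgfra and Cd3e left out 17 cells.

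Some members also carried messages of other cells. At least 3 UMIs of the complement genes C1qa, C1qb and C1qc, which macrophages make, were found in 39 members, and at least 10 UMIs of Col1a1, Col1a2 and Col3a1 in 8. The 44 members with either had a median of 19195 UMIs against 9246 in the rest. In the 39 the macrophage receptor genes Csf1r and Adgre1 stood at 248 and 196 CPM, against 15.8 and 10.5 in the other 167. Cacnb3 was found in 56.4% of the 39 and 79.0% of the 167. A doublet caller marked 9, 7 and 11 of the mature cells, or 11.5%, 13.0% and 14.9%, where 8.84% to 10.2% of all kept cells were marked. The counts below that lead a paragraph were therefore also run without the C1q-positive and collagen-positive cells, with the Cacnb3-positive members alone and without the doublet calls, and the larger moves are given beside the counts. Besides, 17 members also reached 2 Cd209a UMIs, and in those Cacnb3 was found in 17.6% and Ccl5 in 29.4%, against 79.9% and 86.2% of the other 189.

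Lists of markers of other lineages were summed in each library. Of 11 T and NK cell genes, 4 (Cd3d, Cd3g, Trbc1, Trbc2) were at 0 in all mature cells, and the list summed to 1.01 to 165 CPM, the highest in young PBS, where Gzma alone stood at 112. The 6 neutrophil genes summed to 11.1 to 18.2 and the 8 B cell genes to 25.2 to 60.7. The 12 macrophage genes summed to 6605 to 7651 in mature cells and 7472 to 7702 in Cd209a cells, against 37511 to 42203 in cells gated as macrophages. The 7 FAP genes summed to 426, 2132 and 352 CPM in mature cells against 1274, 1105 and 450 in Cd209a cells, the 8 muscle genes to 124, 986 and 220 against 41.6, 477 and 135, and the 8 endothelial genes to 221, 95.6 and 300 against 141, 88.0 and 72.7. FAP genes were thus above the Cd209a cells in old PBS alone, and muscle and endothelial genes in all 3 libraries. The 11 genes of the dendritic lineage summed to 1734, 1596 and 1582 CPM in mature cells, 1169, 1286 and 1147 in Cd209a cells and 1277, 1264 and 1428 in Xcr1/Clec9a cells. By the test described next, 3 of the 11 were called higher and 3 lower against Cd209a cells (12.6% and 13.1% of all genes). Against Xcr1/Clec9a cells 2 were called higher and 6 lower (16.3% and 14.5% of all genes). Flt3, the growth factor receptor of the lineage, was at 96.0, 129 and 80.7 CPM in mature cells and 89.0, 77.2 and 68.6 in Cd209a cells (log2 fold change 0.37 ± 0.16, SE, adjusted p = 0.11). Flt3 was called higher with Cacnb3-positive members alone (0.72, adjusted p = 0.00257), without C1q-positive and collagen-positive cells (0.53, adjusted p = 0.017) and without doublet calls (0.58, adjusted p = 0.0073). Zbtb46, a transcription factor of conventional dendritic cells, was at 39.9, 47.0 and 35.3 against 33.8, 42.3 and 37.8 (log2 fold change 0.11 ± 0.18, adjusted p = 0.718). Barcodes shared between 2 libraries numbered 58 to 80, in libraries of 12168 to 14012 barcodes, and 0 of them belonged to mature cells in both.

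To compare the gates, UMIs were summed per library and gate, and the 9 sums were fitted together for 9862 genes with the library as a term (edgeR quasi-likelihood test, called at a Benjamini-Hochberg adjusted p under 0.05 over all genes). The 3 libraries stood as replicates of each cell type. They differ in age and treatment, so the test asks whether a difference between cell types held across them. Against Cd209a cells 1239 genes, or 12.6%, were higher in mature cells, and 1294, or 13.1%, were lower. Against Xcr1/Clec9a cells 1607 genes, or 16.3%, were higher and 1434, or 14.5%, lower. The genes that the gates used are left out of every count of called genes over a list below, and the other genes come from the same cells that the gates set apart. The share of all genes called in the same direction is given beside a count for comparison.

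The genes that stood highest over Cd209a cells were nearly silent there. Apol7c, an apolipoprotein L gene, was at 232, 686 and 93.8 CPM in mature cells and at 0.523, 0 and 0 in Cd209a cells (log2 fold change 10.30 ± 0.69, adjusted p = 1.73e-06). Old PBS stood above the other libraries, and all 3 were far above every Cd209a library. Tnfrsf4, which encodes the receptor OX40, was at 156, 184 and 136 against 0.523, 0 and 0.484 (8.47 ± 0.34, adjusted p = 9.86e-08) and was found in 97 mature cells, or 47.1%, against 0.499% of Cd209a cells and 0.627% of FAPs. Nudt17, a nudix hydrolase, was found in 104 mature cells and rose by 8.22 ± 0.38 on the log2 scale. Cacnb3 itself was at 234, 217 and 196 against 1.57, 2.07 and 0.727 (7.28 ± 0.38, adjusted p = 4.13e-07).

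The other genes of the 12 that stood highest were Slco5a1, Asprv1, Tcf7, Lad1, H2-M2, Adcy6, Arhgap28 and H2-Eb2, with log2 fold changes from 7.98 down to 5.81. Tcf7, a transcription factor best known from T cells, was at 50.7, 51.6 and 30.3 and was found in 49 mature cells spread over the libraries as 17, 15 and 17. Asprv1, an aspartic protease known from skin, came from 17 cells only, 12 of them in young PBS, and 1 cell gave 29.2% of its UMIs. H2-Eb2, a class II beta chain gene beside H2-Eb1, was at 347, 252 and 268 against 5.23, 7.47 and 3.63 and was found in 73.3% of mature cells, 4.12% of Cd209a cells and 0.114% of FAPs. All 12 were also called higher than in Xcr1/Clec9a cells, by 4.05 to 8.93 on the log2 scale for the 11 with a UMI there. H2-M2 had none in those cells against 227 UMIs in mature cells.

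The upstream sequence of 3 of the higher genes is shown because it holds a motif tied to dendritic cell activation. It was taken from RefSeq (GRCm38.p6) as the 250 bases before the transcription start, read 5′ to 3′ on the strand of the gene. The NF-kappaB consensus, bound by dimers of RelB and its relatives, was searched on both strands, as was GAAANNGAAA, the core of the interferon response element that IRF proteins bind. Capitals mark a match. The first is the window of H2-M2 (chr17:37483555-37483804, minus strand), which held the NF-kappaB consensus 180 and 146 bases before the start. The second is that of Apol7c (chr15:77533316-77533565, minus strand), with 2 overlapping matches of GAAANNGAAA on the other strand from 55 and 49 bases before the start. The third is that of Serpinb9 (chr13:33004291-33004540, plus strand), a granzyme inhibitor gene, with the same core 46 bases before the start.
H2-M2: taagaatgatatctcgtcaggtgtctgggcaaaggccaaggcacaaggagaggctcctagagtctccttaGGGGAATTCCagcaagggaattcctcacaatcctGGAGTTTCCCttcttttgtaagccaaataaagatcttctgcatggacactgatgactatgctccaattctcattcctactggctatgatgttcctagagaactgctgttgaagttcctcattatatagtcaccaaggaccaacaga
Apol7c: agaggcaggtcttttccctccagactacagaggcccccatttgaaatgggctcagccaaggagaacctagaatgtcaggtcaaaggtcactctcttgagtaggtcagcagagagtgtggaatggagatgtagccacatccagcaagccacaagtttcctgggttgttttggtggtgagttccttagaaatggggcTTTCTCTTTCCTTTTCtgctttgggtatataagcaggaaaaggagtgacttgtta
Serpinb9: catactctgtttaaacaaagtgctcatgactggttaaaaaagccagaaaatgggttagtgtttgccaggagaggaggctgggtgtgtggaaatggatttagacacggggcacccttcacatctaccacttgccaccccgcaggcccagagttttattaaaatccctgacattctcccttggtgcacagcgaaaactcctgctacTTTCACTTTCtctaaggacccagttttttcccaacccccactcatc
Over all 27025 genes with a promoter entry, 4.46% held the NF-kappaB consensus in such a window and 3.46% held GAAANNGAAA. Of the 30 genes of the maturation list described next, with the gate genes kept in, 22 had an entry. Among these 0 held the NF-kappaB consensus and 2 held GAAANNGAAA. Of the 12 genes highest over Cd209a cells 10 had an entry. Among those 1 held the NF-kappaB consensus and 1 held GAAANNGAAA. A match is a stretch of letters and not a known binding site.

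The maturation list, 27 genes without the gate genes, moved nearly as a whole. Against Cd209a cells 24 of 27 rose and none fell, where 12.6% of all genes rose and 13.1% fell, with a median log2 fold change of 3.15 where the median of all genes was -0.03. Against Xcr1/Clec9a cells 25 rose and none fell (median 3.72), where 16.3% of all genes rose and 14.5% fell. The list was drawn up from known maturation genes with earlier results of these data in view, so its direction is a description. Without C1q-positive and collagen-positive cells 25 of 27 rose against Cd209a cells.

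**Figure D1:**
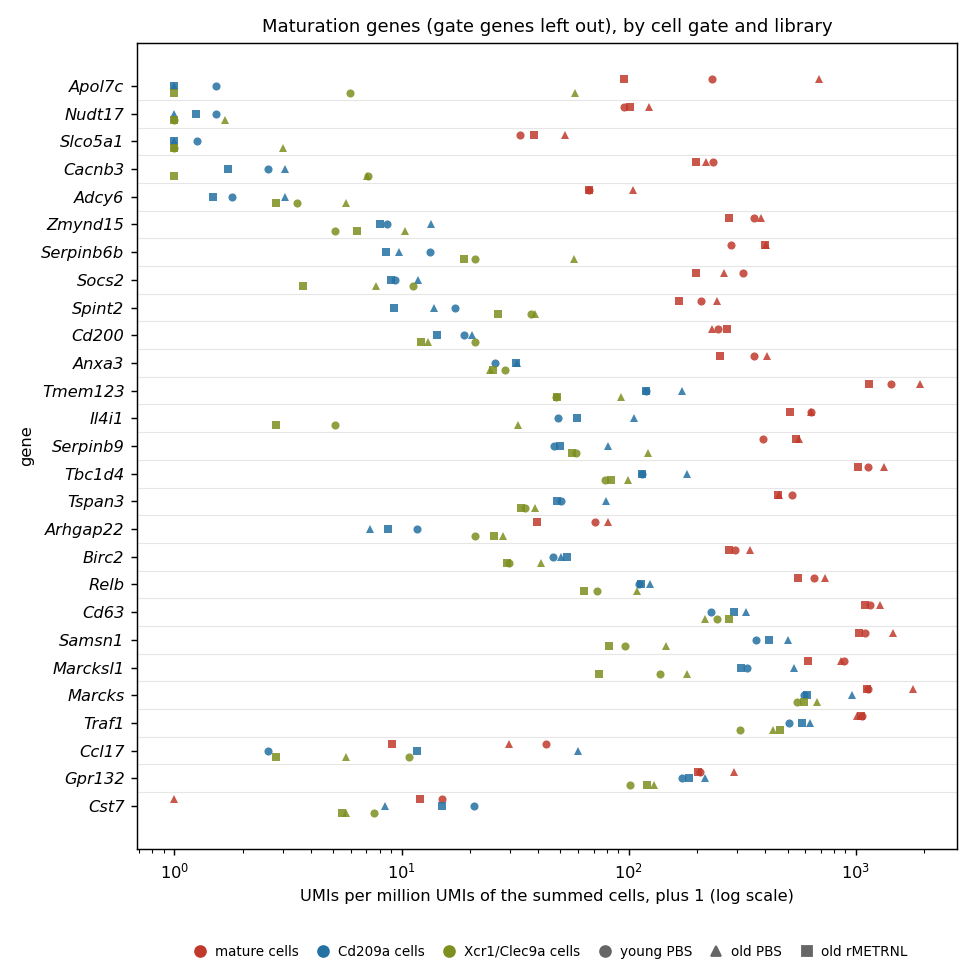
CPM plus 1 (log axis) for 27 maturation genes in the summed cells of each library, with colour for the gate and shape for the library. In 24 genes called higher the 3 mature libraries lie to the right of the Cd209a libraries, and Ccl17, Gpr132 and Cst7 at the bottom overlap.

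Relb, the NF-kappaB subunit that conventional dendritic cells need to mature, was at 653, 728 and 557 CPM in mature cells and 110, 123 and 112 in Cd209a cells (log2 fold change 2.49 ± 0.14, adjusted p = 5.79e-07). The groups did not come near each other. Il4i1, a secreted phenylalanine oxidase that restrains T cells, was at 635, 633 and 510 against 47.9, 105 and 57.9 (3.21 ± 0.38, adjusted p = 0.000102), and against 4.09, 31.5 and 1.79 in Xcr1/Clec9a cells. It was found in 85.4% of mature cells and 0.769% of FAPs. Socs2, a suppressor of cytokine signalling, was at 317, 262 and 196 against 8.37, 10.8 and 7.99 (4.84 ± 0.22, adjusted p = 1.47e-07).

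Cd200, a surface ligand that restrains myeloid cells, was at 247, 231 and 268 against 17.8, 19.5 and 13.3. Tmem123, a membrane mucin, was at 1420, 1918 and 1141 against 118, 170 and 118, and Tbc1d4, a GTPase regulator of vesicle traffic, at 1134, 1327 and 1018 against 114, 180 and 113. Serpinb6b and Serpinb9, intracellular protease inhibitors, rose by 5.20 ± 0.30 and 3.15 ± 0.17 on the log2 scale. Birc2, an inhibitor of apoptosis that also acts in NF-kappaB signalling, rose by 2.62 ± 0.14. In the list 3 genes were not called against Cd209a cells, with log2 fold changes of 0.57 for Ccl17, 0.28 for Gpr132 and -0.65 for Cst7. Gpr132 was called higher under 6 of the alternative settings, with Cacnb3-positive members alone among them (0.60, adjusted p = 0.00256). Ccl17, which shares the receptor CCR4 with Ccl22, was found in just 16 mature cells.

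Of 17 chemokines tested, which attract leukocytes, 3 rose and 9 fell against Cd209a cells, where 12.6% and 13.1% of all genes did. Ccl5, a chemokine that attracts T cells, was at 3429, 3849 and 5698 CPM against 140, 131 and 72.7 (5.37 ± 0.53, adjusted p = 2.85e-05), and was found in 168 of 206 mature cells against 15.6% of Cd209a cells and 5.04% of FAPs. Its highest library was old rMETRNL. Cxcl16, a membrane-bound chemokine, was at 754, 922 and 690 against 327, 501 and 306 (1.11 ± 0.12). Cxcl9, a ligand of CXCR3, was at 566, 238 and 359 against 48.9, 78.8 and 31.0 (3.02 ± 0.39), but it came from 44 cells and 1 cell gave 37.1% of its UMIs, and under a stricter gate (at least 6 UMIs of Ccr7 and Ccl22 and 2 of Fscn1) it was not called (0.67, adjusted p = 0.364). Against Xcr1/Clec9a cells, which stood at 413, 933 and 485, Cxcl9 was not called (-0.48 ± 0.35, adjusted p = 0.348).

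The monocyte attractants Ccl2 (-1.45 ± 0.29) and Ccl7 (-1.63 ± 0.23) and the inflammatory chemokines Ccl3, Ccl4 and Ccl6 were among those that fell. Without C1q-positive and collagen-positive cells in any gate, 0 of 15 chemokines were called lower against Cd209a cells by edgeR, and with the C1q-positive cells alone left out Ccl2 stood at 0.56 and Ccl7 at 0.50.

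Of the receptors that guide monocyte-derived cells into tissue, Ccr2 was at 39.9, 28.8 and 30.3 CPM against 295, 201 and 277 (-2.97 ± 0.19, adjusted p = 1.24e-06). Cx3cr1 (-1.68 ± 0.33) fell too. In all 5 of 9 tested chemokine receptors fell against Cd209a cells (13.1% of all genes) and 1 rose (12.6% of all genes), S1pr1, the receptor for the exit of cells into lymph (24.8, 18.2 and 31.3 against 5.76, 14.1 and 6.78, 1.59 ± 0.50, adjusted p = 0.0366), from 18 cells. The S1pr1 call was lost in 8 of 15 alternatives, among them those without young PBS or without old rMETRNL (adjusted p = 0.0962 and 0.25) and with Cacnb3-positive members alone (adjusted p = 0.444). Against Xcr1/Clec9a cells 3 receptors rose and 1, Ccr2, fell (16.3% and 14.5% of all genes).

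The partners of these molecules were looked for in other cells of the same libraries. Ccr4, the receptor of CCL22, was found, library by library, in 13 of 76, 4 of 113 and 0 of 50 cells with at least 2 Cd3e UMIs. Ccl21a, a ligand of CCR7, was found in 9 of 81, 5 of 48 and 11 of 54 cells that held both Prox1 and Pecam1, markers of lymphatic endothelium, at 1148, 882 and 1332 CPM. Ccl19, the other ligand, was found in 14.0%, 16.2% and 14.9% of FAPs, at 10.7, 17.3 and 11.9 CPM.

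The costimulatory list, which holds ligands that give T cells their second signal and also receptors of such signals, included genes that rose and genes that fell. Against Cd209a cells 5 of 12 tested rose and 3 fell (12.6% and 13.1% of all genes), and against Xcr1/Clec9a cells 9 rose and 2 fell (16.3% and 14.5% of all genes). The number that rose against Cd209a cells was 8 with Cacnb3-positive members alone, with Cd80, Cd83 and Icosl added, and 7 without doublet calls, and 3 fell in each. Cd40, the receptor for T cell help, was at 259, 259 and 156 CPM against 96.6, 144 and 104 in Cd209a cells and 41.3, 83.1 and 48.7 in Xcr1/Clec9a cells (0.99 ± 0.20 and 2.08 ± 0.22). Cd86, a ligand of CD28, went the other way, with 142, 138 and 163 against 233, 237 and 237 (-0.66 ± 0.12, adjusted p = 0.00153). Cd80, the other ligand, was not called against Cd209a cells (0.36 ± 0.14, adjusted p = 0.0868, but 0.0463 with Cacnb3-positive members alone) and rose against Xcr1/Clec9a cells (1.40 ± 0.16). Cd83, often used as a maturation marker, was at 765, 722 and 636 against 600, 711 and 680, a difference within the spread of the libraries (0.11 ± 0.14, adjusted p = 0.603). With Cacnb3-positive members alone it was called higher (0.45, adjusted p = 0.0387).

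Tnfrsf9, which encodes 4-1BB, was at 52.8, 78.9 and 45.4 against 1.57, 4.56 and 0.484 (4.93 ± 0.35), and was found in 72 mature cells, or 35.0%, against 0.855% of FAPs. Cd70, a ligand of CD27, was at 28.0, 28.8 and 10.1 against 2.35, 1.66 and 4.12 (2.87 ± 0.54), from 24 mature cells, and was not called without young PBS (adjusted p = 0.0532). Cd1d1, which presents lipids, was at 35.6, 39.4 and 31.3 against 1.57, 1.66 and 2.18 (4.23 ± 0.34) and was found in 51 mature cells, or 24.8%, against 21.5% of FAPs, which held more UMIs a cell. Cd48, a ligand of CD244, fell by 1.63 ± 0.15 on the log2 scale. Tnfsf9, the ligand gene of 4-1BB, fell too (-0.73, adjusted p = 0.00506), but not without young PBS (adjusted p = 0.0514) or without old rMETRNL (adjusted p = 0.0717). Tnfsf4, the ligand gene of OX40, was not called (0.68, adjusted p = 0.349).

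Of 16 inhibitory and regulatory genes tested 8 rose and 4 fell against Cd209a cells, both above the 12.6% and 13.1% of all genes. Cd274, which encodes PD-L1, was at 137, 202 and 187 CPM against 47.1, 85.5 and 57.4 (1.51 ± 0.13, adjusted p = 1.17e-05) and was found in 69.4% of mature cells against 34.5% of Cd209a cells and 14.9% of FAPs. Pdcd1lg2, which encodes PD-L2, was not called against Cd209a cells (0.72 ± 0.40, adjusted p = 0.23, but 0.0354 with Cacnb3-positive members alone). Fas, the death receptor, rose by 1.28 ± 0.22 and Socs1 by 1.33 ± 0.30. Aldh1a2, which makes retinoic acid, was at 22.6, 71.3 and 16.1 against 6.80, 2.49 and 1.45 (3.20 ± 0.49), and 60.5% of FAPs held it. Aldh1a2 was not called against comparison cells taken without the conditions on Pdgfra and Cd3e (1.42, adjusted p = 0.165). Havcr2, which encodes TIM-3, was at 18.3, 13.7 and 11.1 against 52.9, 81.3 and 57.7 and fell by 2.09 ± 0.25. Tgfb1 (-0.95 ± 0.13), Socs3 (-0.94 ± 0.17) and Il10 (-1.45 ± 0.48) fell with it. The call on Il10, from 10 cells, was lost in 9 of 14 alternatives. Among them were those without young PBS (-1.165, adjusted p = 0.273), without old rMETRNL (-0.93, adjusted p = 0.238) and without doublet calls (-1.39, adjusted p = 0.123).

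Of 16 cytokine genes tested, 4 rose and 5 fell against Cd209a cells, where 12.6% and 13.1% of all genes did. Without C1q-positive and collagen-positive cells 2 of 13 rose and 2 fell, and without doublet calls 2 of 14 rose and 3 fell, with Il27 no longer tested and Il6 not called in either. Il12b was at 263, 759 and 347 CPM against 18.8, 36.1 and 0.484 (5.05 ± 0.62, adjusted p = 0.000133). It was found in 73 members, or 35.4%, against 1.75% of Cd209a cells and 6.68% of Xcr1/Clec9a cells. Il12a, which encodes the partner chain of interleukin 12, was at 0 in all 3 mature sums, where a count of 0 allows up to 3 UMIs. The 73 members with Il12b had more of other messages than the 133 without it, with Ccl5 at 6864 against 3155 CPM, Ccl22 at 1042 against 355 and Irf8 at 720 against 361, which is a description of cells and was not tested. Il15 (1.66 ± 0.25) and Il27 (3.11 ± 0.57), both cytokines that act on T cells, rose. Il6 was called higher (1.61 ± 0.43, adjusted p = 0.0176), but 1 cell gave 61.4% of its UMIs and under the stricter gate it stood at -0.91. Il1b, the main inflammatory interleukin, was at 924, 1267 and 960 against 2256, 2902 and 2789 (-1.32 ± 0.12, adjusted p = 1.7e-05).

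Among 21 cytokine receptor genes 4 rose and 8 fell against Cd209a cells, the first near the 12.6% and the second above the 13.1% of all genes. With Cacnb3-positive members alone 7 rose and 6 fell, and 6 rose without doublet calls and without C1q-positive and collagen-positive cells. Il2ra, the high-affinity interleukin 2 receptor chain, was at 116, 153 and 118 against 13.6, 28.6 and 17.9 in Cd209a cells and 0.819, 2.01 and 0.447 in Xcr1/Clec9a cells (2.75 ± 0.18 and 7.0 ± 0.30). Il15ra, which presents interleukin 15, was at 45.3, 112 and 105 against 6.80, 5.81 and 2.42 (4.10 ± 0.38). Il21r (1.47 ± 0.19) and Tnfrsf11a, which encodes RANK (1.70 ± 0.22), rose as well, and Ifngr1, a chain of the interferon gamma receptor, fell by 1.26 ± 0.18 and Il6ra by 1.76 ± 0.17. Metrnl, the gene whose protein the treatment supplied, was at 61.5, 75.9 and 54.5 CPM in mature cells, 84.8, 103 and 96.9 in Cd209a cells and 187, 208 and 210 in macrophages. It fell against Cd209a cells by 0.56 ± 0.16 (adjusted p = 0.0267), and Metrnl lost the call in 9 of 16 alternatives, among them those without old PBS (adjusted p = 0.057), without old rMETRNL (-0.38, adjusted p = 0.19) and without C1q-positive cells (-0.12, adjusted p = 0.698). Kit, a receptor of meteorin-like protein in other work, was at 33.4, 36.4 and 40.4 and was not called against Cd209a cells (-0.20 ± 0.15, adjusted p = 0.396).

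**Figure D2:**
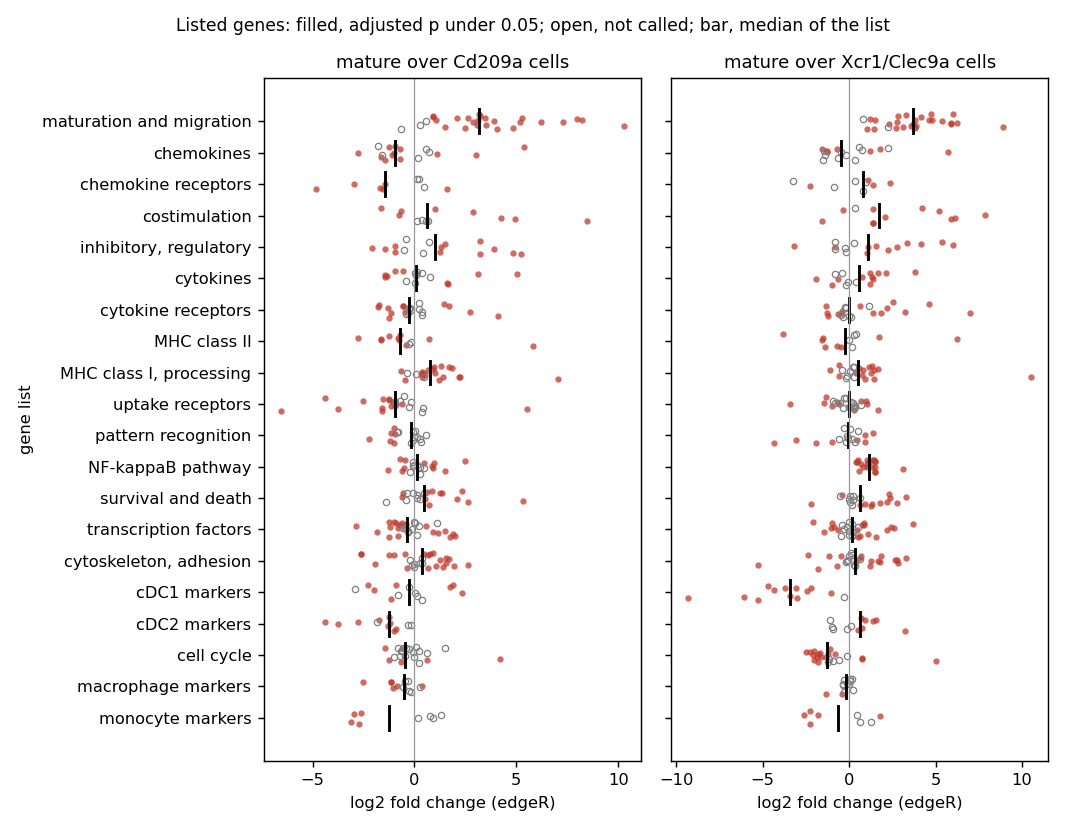
Log2 fold change (edgeR) of every tested gene of 20 lists, for mature over Cd209a cells and mature over Xcr1/Clec9a cells, with filled points for adjusted p under 0.05 and a bar at the median of the list. The maturation list lies to the right in both panels (medians 3.15 and 3.72), and the NF-kappaB list does so only against Xcr1/Clec9a cells (0.11 and 1.14).

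Of 12 MHC class II genes tested, which serve the presentation of peptides to CD4 T cells, 8 fell and 2 rose against Cd209a cells (13.1% and 12.6% of all genes, median -0.72). The number that fell was 6 without doublet calls, without C1q-positive and collagen-positive cells and with Cacnb3-positive members alone. There were 6 that fell and 2 that rose against Xcr1/Clec9a cells (14.5% and 16.3% of all genes). But 4 fell and 5 rose against them without doublet calls and without C1q-positive and collagen-positive cells. Of the classical chains 2 were not called. H2-Aa was at 10606, 8716 and 6773 CPM against 10488, 11005 and 9734 (-0.25 ± 0.14, adjusted p = 0.211), and H2-Eb1 was not called (-0.19 ± 0.14, adjusted p = 0.372), though without young PBS both were called lower (adjusted p = 0.011 and 0.012). H2-Ab1 fell by 0.74 ± 0.16 and Cd74, the invariant chain, by 0.43 ± 0.13, a call lost in 9 of 16 alternatives, among them DESeq2 (adjusted p = 0.061), each old library left out (-0.35 and -0.28) and Cacnb3-positive members alone (-0.15, adjusted p = 0.473). Among the genes for loading and turnover, H2-DMa, part of the editor that loads peptides, was at 256, 184 and 158 against 694, 583 and 619 (-1.66 ± 0.15, adjusted p = 1.83e-05), and H2-DMb1 followed it (-1.62 ± 0.20). March1, an E3 ligase that removes class II from the surface, was at 3.24, 9.10 and 5.05 against 40.8, 32.0 and 40.0 (-2.78 ± 0.29, adjusted p = 3.91e-05). Ciita, the class II master regulator, fell by 0.83 ± 0.24, and Ciita also lost its call in 9 of 16 alternatives, among them those without old PBS (adjusted p = 0.095), without old rMETRNL (-0.48, adjusted p = 0.21) and with Cacnb3-positive members alone (-0.42, adjusted p = 0.257). H2-DMb2 and H2-Eb2 were the 2 that rose, H2-DMb2 by 0.70 ± 0.20 and not without young PBS (0.40, adjusted p = 0.212). Genes of this family are close in sequence, so the split of reads between H2-DMb1 and H2-DMb2, or H2-Eb1 and H2-Eb2, is less certain than their sum.

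MHC class I and its processing genes mostly rose. Of 22 genes tested 17 rose and 2 fell against Cd209a cells (12.6% and 13.1% of all genes, median 0.78), and 12 rose and 3 fell against Xcr1/Clec9a cells (16.3% and 14.5% of all genes). H2-K1, a classical heavy chain, was at 3043, 2951 and 2453 against 2087, 1772 and 1564 (0.66 ± 0.08, adjusted p = 0.000121) and its partner B2m at 4189, 4025 and 3581 against 2945, 2645 and 2588 (0.54 ± 0.08). The proteasome activator Psme2 was at 1049, 878 and 910 against 217, 195 and 212 (2.20 ± 0.11, adjusted p = 2.75e-07). Nlrc5, the class I transactivator, rose by 1.71 ± 0.21 and the peptide transporter gene Tap2 by 1.30 ± 0.14. H2-Q6 (2.25 ± 0.15) and H2-Q7 (1.42 ± 0.12) are near-identical copies whose reads may be split. The chaperones Calr and Pdia3 were the 2 that fell (-0.48 ± 0.11 and -0.65 ± 0.12).

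**Figure D3:**
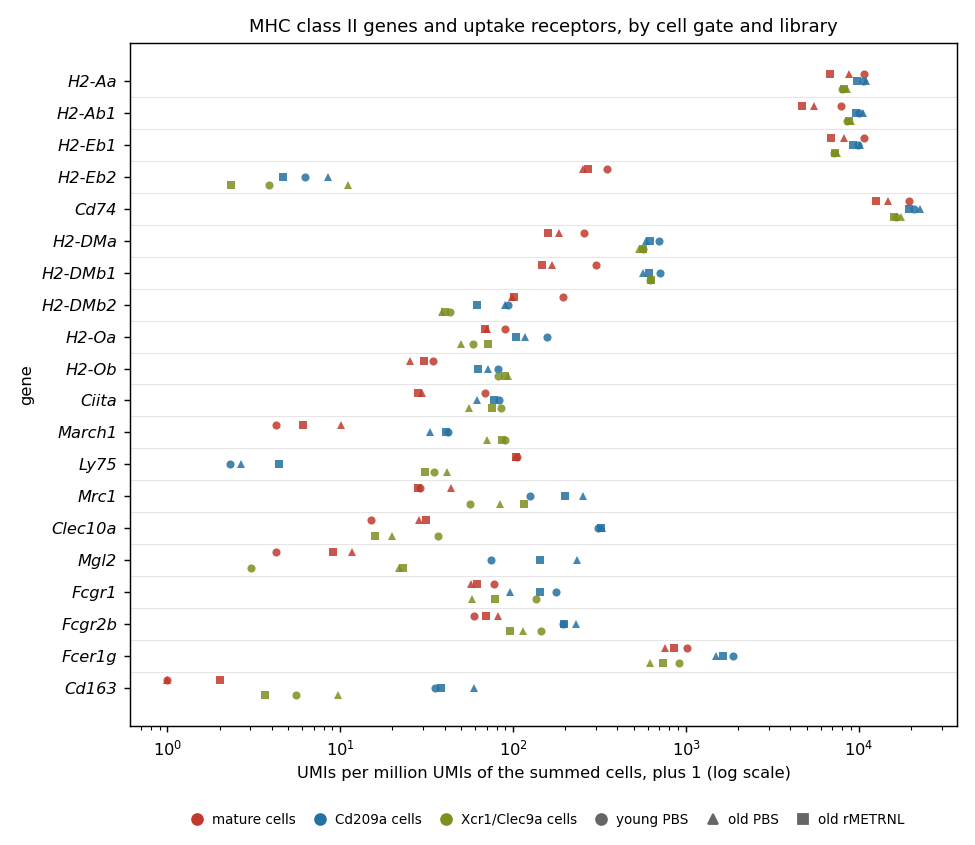
CPM plus 1 (log axis) for MHC class II genes and uptake receptors in each gate and library, in the same colours and shapes. H2-Eb2 and Ly75 stand to the right in mature cells, while H2-DMa, March1, Clec10a, Mgl2 and Cd163 stand to the left of the Cd209a cells.

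Of 25 receptors for uptake tested 17 fell and 1 rose against Cd209a cells (13.1% and 12.6% of all genes, median -0.97). Against Xcr1/Clec9a cells 6 fell and 5 rose, nearer the 14.5% and 16.3% of all genes, but 2 fell and 8 rose of 22 without C1q-positive and collagen-positive cells, and 9 fell and 2 rose with Cacnb3-positive members alone. Several of these lectins are known from cDC2. Clec10a, a galactose lectin, was at 14.0, 27.3 and 30.3 CPM against 309, 326 and 319 (-3.74 ± 0.29, adjusted p = 4.95e-06) and Mgl2, its close relative, at 3.24, 10.6 and 8.07 against 73.5, 232 and 141 (-4.39 ± 0.36). Cd163, the haemoglobin scavenger receptor, had 1 UMI in all mature cells and was at 34.0, 58.5 and 37.1 in Cd209a cells (-6.54 ± 0.54, adjusted p = 7.71e-06). The mannose receptor Mrc1 fell by 2.53 ± 0.24, the Fc receptor Fcgr2b by 1.57 ± 0.16 and Fcgr1 by 1.08 ± 0.16. Ly75, which encodes the uptake lectin DEC-205, was the 1 that rose (105, 103 and 103 against 1.31, 1.66 and 3.39, 5.52 ± 0.27, adjusted p = 2.46e-07). It stood above the Xcr1/Clec9a cells too, which were at 33.6, 40.2 and 29.97 (1.67 ± 0.20).

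The genes lowest against Cd209a cells included lectins and scavenger receptors. Each of the 12 was found in a minority of the Cd209a cells, from 3.5% (Cd209g) to 33.3% (Ltb4r1), with Siglech in 13.9% and Cd163 in 14.1%. Cd209g was not called by DESeq2 (adjusted p = 0.314). Cd209g and Ccdc180 had no UMI in any mature cell against 185 and 101 in Cd209a cells, so that they were at least 15.3-fold and 8.38-fold lower, taking 3 UMIs over the group as the floor. Cd209f, Siglech, Dmkn, Ccr9, C4b, Cd300c, Cd209d and Ltb4r1 completed the 12, each with 1 to 14 UMIs in mature cells. Siglech and Ccr9 are markers of plasmacytoid dendritic cells and were at 62.8, 30.7 and 30.8 and at 46.1, 31.5 and 23.98 in Cd209a cells. The Cd209 genes are close copies.

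Of 17 sensors of microbes 0 rose by edgeR and 6 fell against Cd209a cells (12.6% and 13.1% of all genes), while 2 rose with Cacnb3-positive members alone and without C1q-positive and collagen-positive cells. Among those that fell were Tlr2 (-1.01 ± 0.26), Tlr4 (-2.23 ± 0.61), whose call was lost with any 1 library left out (adjusted p = 0.0586 to 0.0875), and the inflammasome sensor Nlrp3 (35.6, 72.8 and 34.3 against 92.6, 159 and 75.6, -1.20 ± 0.15). Of the 21 genes of the lysosomal list 4 rose, near the 12.6% of all genes, and 8 fell, against 13.1%. Cst3, a cathepsin inhibitor, was at 13131, 9948 and 10036 CPM against 3516, 3580 and 3392 (1.67 ± 0.12, adjusted p = 2.67e-06), and was below the Xcr1/Clec9a cells, at 15748, 16926 and 15359 (-0.47 ± 0.12, adjusted p = 0.00991).

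Of the NF-kappaB pathway, which drives maturation, 19 of 19 tested genes rose against Xcr1/Clec9a cells (16.3% of all genes, median 1.14). Against Cd209a cells 6 rose and 5 fell (12.6% and 13.1% of all genes, median 0.11). With Cacnb3-positive members alone 10 rose and 5 fell (median 0.41), where 1558 and 1559 of all 9713 genes did. Without C1q-positive and collagen-positive cells 10 rose and 3 fell (1333 and 1281 of all 8055 genes). Without doublet calls 9 rose and 4 fell (1357 and 1441 of all 9078 genes). Relb, Nfkb2, Traf1, Traf2, Traf3 and Map3k14 were the 6 that rose in all members, and Cflar, Icam1, Nfkbib and Rel joined them in both counts of 10. Nfkb2 was at 195, 253 and 206 CPM against 102, 149 and 109 in Cd209a cells (0.89 ± 0.11, adjusted p = 0.000195), and Traf3 rose by 1.5 ± 0.17. Nfkb1, the canonical p105 gene, was at 195, 394 and 230 against 361, 535 and 413 (-0.71 ± 0.12, adjusted p = 0.00117, but 0.098 with no library term), and Tnip3 fell by 1.29 ± 0.12. Of 20 genes of cell survival 10 rose and 2 fell against Cd209a cells (12.6% and 13.1% of all genes). Bcl2l14 was at 84.1, 95.6 and 157 against 4.19, 0.830 and 2.66 (5.34 ± 0.31), and Bcl2a1b, an anti-apoptotic gene with close copies, rose by 1.37 ± 0.19.

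Of 30 transcription factors tested 7 rose and 13 fell against Cd209a cells, where 12.6% and 13.1% of all genes did. Against Xcr1/Clec9a cells 12 rose and 6 fell, where the shares of all genes were 16.3% and 14.5%. Without C1q-positive and collagen-positive cells 9 rose and 8 fell against Cd209a cells. Irf8, which cDC1 depend on, was at 377, 528 and 550 CPM, above the Cd209a cells at 193, 116 and 137 (1.73 ± 0.17, adjusted p = 3.28e-05) and below the Xcr1/Clec9a cells at 1122, 872 and 1147 (-1.03 ± 0.17, adjusted p = 0.000803). Batf3, its partner, was at 56.1, 105 and 69.6 against 22.8, 21.2 and 17.0 in Cd209a cells (1.91 ± 0.25) and was not called against Xcr1/Clec9a cells (-0.32 ± 0.23, adjusted p = 0.318). Irf4, which cDC2 use, was at 35.6, 37.9 and 13.1, lower than in Cd209a cells (-1.23 ± 0.27, not called without C1q-positive cells, adjusted p = 0.0833) and higher than in Xcr1/Clec9a cells (1.57 ± 0.34). Of the cDC1 markers 12 of 13 fell against Xcr1/Clec9a cells (14.5% of all genes). Of the cDC2 markers 9 of 12 fell against Cd209a cells (13.1% of all genes). Each comparison gate was itself chosen by markers of the type that fell against it. Against Xcr1/Clec9a cells 7 of 12 cDC2 markers rose and 0 fell (16.3% and 14.5% of all genes). Against Cd209a cells 3 of 13 cDC1 markers rose and 4 fell (12.6% and 13.1% of all genes). Xcr1 or Clec9a was found in 15 members, Cd209a at 2 UMIs or more in 17, and 168, or 81.6%, held none of the 3.

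Stat4, the signal carrier of interleukin 12, was at 205, 281 and 247 against 89.0, 130 and 117 in Cd209a cells and 12.7, 25.5 and 23.3 in Xcr1/Clec9a cells (1.14 ± 0.14 and 3.68 ± 0.16). Nr4a3, which migratory dendritic cells need, was at 612, 868 and 632 against 317, 485 and 349 (0.89 ± 0.10). Bcl11a (-2.87 ± 0.28), Batf (-1.86 ± 0.16), Klf4 (-1.20 ± 0.19) and Zeb2 (-0.92 ± 0.13) fell against Cd209a cells.

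Of 27 cytoskeletal and adhesion genes tested 13 rose and 7 fell against Cd209a cells, where 12.6% and 13.1% of all genes did. Actb, actin itself, was at 18841, 16596 and 15569 against 10457, 9125 and 10915 (0.76 ± 0.10), Swap70, which links actin to migration, at 333, 349 and 256 against 81.9, 130 and 87.0 (1.70 ± 0.17), and the myosin gene Myo1g at 422, 399 and 378 against 124, 159 and 133 (1.56 ± 0.14). The integrin genes went separate ways. Itga4 (1.55 ± 0.12) and Itgb1 (1.25 ± 0.11), which pair as VLA-4, rose, while Itgb7 (-2.63 ± 0.26) and Itgax, the CD11c gene (27.0, 60.7 and 52.5 against 103, 143 and 87.2, -1.24 ± 0.18), fell. Mmp12 was called higher (2.65 ± 0.47), but 17 cells held it and 1 cell gave 55.6% of its UMIs. Mmp12 stood at -1.98 with Cacnb3-positive members alone and at -1.12 without doublet calls.

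Of 22 cell cycle genes 2 rose and 4 fell against Cd209a cells, where 12.6% and 13.1% of all genes did. There were 3 that rose and 14 that fell against Xcr1/Clec9a cells (16.3% and 14.5% of all genes). With Cacnb3-positive members alone 14 of 22 fell against Cd209a cells (median -1.12, against -0.45 in all members), where 1559 of all 9713 genes did. Without C1q-positive and collagen-positive cells 6 fell (1281 of all 8055 genes). The brakes Cdkn1b (0.64 ± 0.12) and Cdkn2b (4.22 ± 0.57) were the 2 that rose against Cd209a cells. Not all members were quiet, since 55, or 26.7%, reached a mark for cycling, set at 2 UMIs summed across 10 genes. Of 21 genes of glycolysis and hypoxia 3 rose and 7 fell against Cd209a cells (12.6% and 13.1% of all genes). Of 20 lipid and sterol genes 4 rose and 1 fell against Cd209a cells (12.6% and 13.1% of all genes). These counts were 1 and 10, and 6 and 4, with Cacnb3-positive members alone. Fabp5, a lipid carrier, was at 3397, 3040 and 2527 against 427, 724 and 607 (2.36 ± 0.29), and Idi1, of isoprenoid synthesis, at 120, 117 and 121 against 15.4, 21.2 and 15.0 (2.84 ± 0.22). Of 19 immediate early and stress genes 0 rose and 12 fell against Cd209a cells by edgeR (12.6% and 13.1% of all genes), and 0 rose and 2 fell against Xcr1/Clec9a cells (16.3% and 14.5% of all genes), with Fos at 368, 255 and 207 against 705, 537 and 756 in Cd209a cells (-1.27 ± 0.22). The monocyte genes Ly6c2 (-3.10 ± 0.21) and Plac8 (-2.72 ± 0.16) fell.

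Mature cells were 0.684% of kept cells in young PBS (78 of 11403, exact 95% binomial interval 0.541% to 0.853%), 0.488% in old PBS (54 of 11058, 0.367% to 0.637%) and 0.579% in old rMETRNL (74 of 12786, 0.455% to 0.726%). The intervals overlap. The ratio of old PBS to young PBS was 0.714 (0.495 to 1.02) and that of old rMETRNL to old PBS 1.19 (0.823 to 1.72). Cd209a cells were 2.61%, 1.61% and 2.54% of kept cells, so that of the 3 dendritic gates together the mature cells were 15.1%, 16.8% and 13.6%. The gate needs a number of UMIs and so depends on depth. Thinned to 5000 UMIs a cell the shares were 0.578%, 0.533% and 0.433%, and 848, 2058 and 1709 shallower kept cells were left out. Thinned to 2000 UMIs they were 0.306%, 0.296% and 0.336%, with 289, 919 and 869 cells left out.

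**Figure D4:**
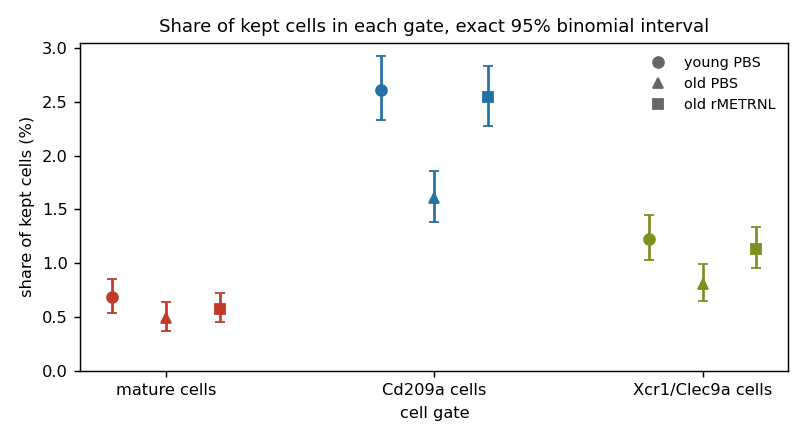
Share of kept cells (%) in the 3 dendritic gates for each library, with exact 95% binomial intervals that cover counting error only. The mature cells lie between 0.488% and 0.684% with overlapping intervals, while Cd209a cells of old PBS, at 1.61%, lie below those of the other libraries.

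Within the mature cells, ratios between libraries rest on 54 to 78 cells a library and 659140 to 991029 UMIs. Of 5181 genes with at least 50 UMIs over the 3 libraries, 263, or 5.08%, were past 2-fold higher in old PBS than in young PBS and 188, or 3.63%, past 2-fold lower. From old PBS to old rMETRNL 264, or 5.10%, were past 2-fold higher and 129, or 2.49%, lower. Without C1q-positive and collagen-positive cells 3438 genes were compared. Of these 138 were higher and 131 lower from young to old PBS, and 132 higher and 119 lower from old PBS to old rMETRNL. These comparisons share the old PBS library. The genes with the largest ratios included muscle genes, and single cells gave much of their UMIs. Ckm, the muscle creatine kinase, was at 1.08 CPM in young PBS and 135 in old PBS, where 1 cell gave 78.7% of its UMIs. Of the 12 genes named for each comparison, the highest cell gave 30.4% to 87.5% of the UMIs for old PBS against young PBS and 44.9% to 99.3% for old rMETRNL against old PBS, in the library where the gene stood higher.

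**Figure D5:**
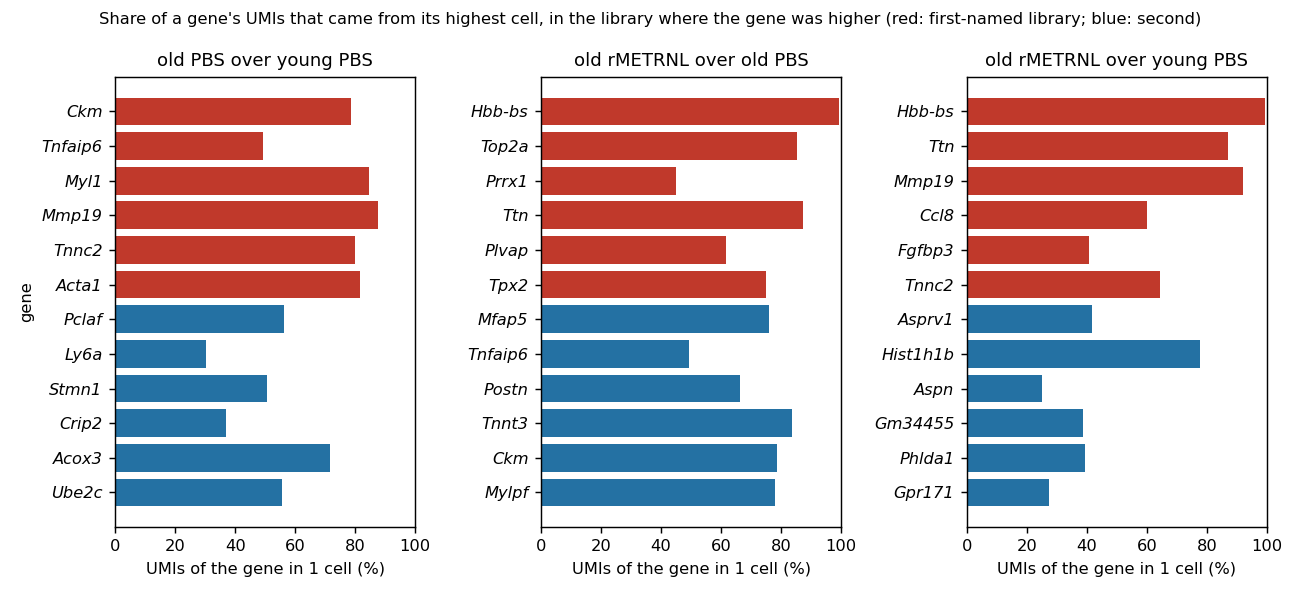
Share (%) of the UMIs of a gene that came from its highest cell among the mature cells, for the 6 genes with the largest ratio in each direction of each library comparison, in red where the first-named library was higher and in blue where the second was. Hbb-bs of old rMETRNL (99.3%) and Mmp19 of old PBS (87.5%) came almost wholly from 1 cell, and Ly6a of young PBS (30.4%) did not.

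Ly6a, which encodes the interferon-responsive surface protein Sca-1, was at 344 CPM in young PBS (30 of 78 cells) and 41.0 in old PBS (10 of 54 cells), a ratio of 0.119 (exact 95% interval 0.0772 to 0.177). It was lower in old PBS in Cd209a cells too, at 530 and 161 (ratio 0.303), and in Xcr1/Clec9a cells (0.518). Isg15, another interferon-stimulated gene, was at 388, 153 and 481 CPM in mature cells and 249, 111 and 218 in Cd209a cells, with a ratio of old PBS to young PBS of 0.395 (0.313 to 0.493) and of old rMETRNL to old PBS of 3.14 (2.53 to 3.93). Irf7 was at 538, 181 and 545, and at 478, 181 and 350 in Cd209a cells. Of 17 interferon-stimulated genes, 13 were below 0 on the log2 scale in old PBS against young PBS (median -0.45, all genes 0.05) and 15 of 17 above 0 in old rMETRNL against old PBS (median 0.28, all genes 0.06). Without C1q-positive and collagen-positive cells the medians were -0.94 and 0.75. The summed endothelial genes of the mature cells moved the same way, at 221, 95.6 and 300 CPM, and not so in Cd209a cells, at 141, 88.0 and 72.7. Their part in these ratios was not tested.

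MHC class II genes were lower in both old libraries. All 11 with at least 50 UMIs lay below young PBS in old PBS (median log2 ratio -0.46) and in old rMETRNL (-0.65), where the medians of all genes were 0.05 and 0.12. Cd74 was at 19362, 14649 and 12470 CPM, a ratio of old PBS to young PBS of 0.757 (0.738 to 0.776), and Ciita at 67.9, 28.8 and 27.2 (0.424, 0.24 to 0.718). In Cd209a cells Cd74 was at 20880, 22428 and 19448. Without C1q-positive and collagen-positive cells all 11 were below 0 from young to old PBS, as were 10 of 11 from young PBS to old rMETRNL.

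Of 11 cytokine genes with at least 50 UMIs, 10 lay above 0 on the log2 scale in old PBS against young PBS (median 0.69, all genes 0.05) and 8 below 0 in old rMETRNL against old PBS (median -0.48, all genes 0.06). Il12b stood in old PBS at 2.88 times its level in young PBS (2.47 to 3.37), and in old rMETRNL at 0.458 times its level in old PBS (0.398 to 0.526), with 27, 22 and 24 cells that held it. Apol7c was 2.96 times higher in old PBS than in young PBS (2.51 to 3.5), from 29 and 22 cells. Of 26 maturation genes without the gate genes, 18 lay above 0 in old PBS against young PBS (median 0.21) and 24 of 26 below 0 in old rMETRNL against old PBS (median -0.44). With Cacnb3-positive members alone the medians of the list were 0.02 and -0.04, where the medians of all genes were 0.11 and -0.05. The old PBS mature cells also carried the highest summed levels of FAP and muscle genes (2132 and 986 CPM). The part of these in the ratios was not tested.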

How the data were processed

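The deposited files held raw UMI counts per gene and barcode, 1 matrix for each of 3 libraries. The authors made these counts with Cell Ranger on mm10 (5.0.0 per the file headers, while the processing notes list 5.0.0 and 3.1.0) and pooled 3 mice a library. The totals of the mature cells were 659140 to 991029 UMIs, and intervals cover counting error only. Members, gene lists and named genes were chosen with earlier results of these data known. Named genes were the 12 most changed in each direction against Cd209a cells and every member of the gene lists. The 6 most changed in each direction between libraries were named too. The 12 were called, moved the same way in all 3 libraries and had at least 100 UMIs over mature and Cd209a cells. The 6 were past 2-fold with an interval that left out 1, and were found in at least 10% of mature cells of the higher library. Some list members are not reported here.

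UMIs were summed per library and gate, and 9 sums were tested with the edgeR 4.0.16 quasi-likelihood test in R 4.3.3 (TMM, expression filter, library and cell type as terms, Benjamini-Hochberg adjusted p under 0.05). Genes of the gates got no test in the text. Between libraries, CPM ratios with exact intervals were taken for genes with at least 50 UMIs, with 0.5 added to counts for log2 ratios. Scrublet (scanpy 1.11.5) scored doublets. Its automatic threshold gave 139, 142 and 0 calls, so the highest scores were called at 0.8% per 1000 cells. Called cells were kept, and left out as an alternative. The test was checked on simulated counts with a dispersion above the 0.0207 of the data. It recovered 23% of 2-fold and 86% of 4-fold changes there, so a gene that was not called may still differ. Alternatives were RLE scaling, DESeq2 1.42.0, no filter, no library term, other gates, filters and depths, and each library left out. Leaving out cells with C1q or collagen UMIs, and members without Cacnb3, was chosen after seeing the data. Depth was thinned to 5000 or 2000 UMIs a cell.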

Additional observations from a re-analysis of the deposited data

Results flagged for a closer look

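For 3 genes the ratio between libraries lay far above 1 in mature cells and below 1 in Cd209a cells. The differences were not tested, since each group had 1 library. Tnfaip6, a hyaluronan-binding protein of inflammation, was 86.7 times as high in old PBS as in young PBS in mature cells and 0.357 times in Cd209a cells, and 1 cell gave 49.2% of its UMIs in mature cells of old PBS. Prrx1, a mesenchymal transcription factor, was 32.6 times as high in old rMETRNL as in old PBS in mature cells and 0.292 times in Cd209a cells, with 44.9% of its UMIs from 1 mature cell. Hbb-bs, a haemoglobin chain, was 144 times as high in old rMETRNL as in young PBS in mature cells and 0.0552 times in Cd209a cells, with 99.3% of its UMIs from 1 mature cell.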

How the results depend on the processing

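With each library left out in turn, the genes called higher in mature than in Cd209a cells numbered 824 to 1042 (824 without young PBS) and those called lower 720 to 1079 (831 without young PBS, 720 without old rMETRNL). Those lower than in Xcr1/Clec9a cells numbered 944 to 1096 (944 without old rMETRNL). These fits hold fewer sums. DESeq2 called 1014 higher and 881 lower against Cd209a cells, and 1342 and 997 against Xcr1/Clec9a cells. The share ratio of old PBS to young PBS was 1.11 among the 3 dendritic gates, and that of old rMETRNL to old PBS was 0.809 there and 0.812 after thinning to 5000 UMIs. Genes past 2-fold from young to old PBS numbered 1154 with at least 20 UMIs, 73 with at least 200, 218 after thinning and 269 without C1q-positive and collagen-positive cells. From old PBS to old rMETRNL they numbered 1130, 71, 141 and 251 in turn, 247 without doublet calls and 243 under the stricter gate. Of 2515 values for 159 genes against Cd209a cells, 2367 kept direction and call, 106 lost the call, 26 gained one and 16 changed sign. Sign changes were Ccl17 at -0.37 and -0.43 without C1q-positive cells, with and without the collagen-positive ones left out too, and -0.81 to 1.85 over the libraries left out (-0.81 without young PBS); Ccl2 at 0.56 and Ccl7 at 0.50 without C1q-positive cells, and Ccl7 at 0.17 without collagen-positive cells as well. Under the stricter gate Il6 was at -0.91, Kit at 0.075 and H2-Eb1 at 0.053, without doublet calls Kit was at 0.0024 and Mmp12 at -1.12, and with Cacnb3-positive members H2-Aa was at 0.059, H2-Eb1 at 0.13 and Mmp12 at -1.98. Over the libraries left out Cd83 ran from -0.064 to 0.27 and Zbtb46 from -0.00717 to 0.27, both lowest without young PBS. The causes were not tested. Calls were lost without young PBS for Cd70, Socs1, H2-Oa, Etv3 and Tap1, without old PBS for H2-Ab1 and H2-D1, and without old rMETRNL for Ccl3, Calr, Irf4 and Tlr2, among others. No paired analysis was possible because each group had 1 library. The cell types were compared within libraries, with the library as a term.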
